A study of Phyllostachys edulis with 34 samples.

Results

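PheCAD8 (PH02Gene13789), PheCAD10 (PH02Gene13790) and PheCAD11 (PH02Gene13791) are 3 cinnamyl alcohol dehydrogenase (CAD) genes of Moso bamboo (Phyllostachys edulis) that carry consecutive gene identifiers. They were chosen by these identifiers and not by their expression, and they are 3 of the 14 PheCAD genes and of the 59091 genes in the tables. Consecutive numbers were read here as a name only, since no genome annotation was used and the positions of the genes were not analysed here. RNA of young leaves was sequenced from 30-day-old seedlings that were grown in nutrient solution and treated with stress agents or hormones. There were 34 libraries in 11 groups. The treated groups received 25% polyethylene glycol (PEG, a drought treatment), 200 mM NaCl (a salt treatment), 1 mM salicylic acid (SA) or 1 µM abscisic acid (ABA), each for 3 h and for 24 h, with 3 libraries per group. The group called CK had 3 libraries at 3 h and 3 at 24 h and was read as the untreated seedlings sampled at the same times, a reading the labels leave unstated. The 0 h group had 4 libraries. All groups share the species, the tissue and the nutrient solution, and the labels give no cultivar. The study states biological replicates, but nothing says how many seedlings entered a library, so the p-values measure the spread between these libraries.

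CAD is the enzyme of the last step of monolignol synthesis, in which cinnamaldehydes are reduced to the corresponding alcohols with NADPH. The alcohols are exported to the cell wall and polymerised into lignin, which stiffens the wall and makes it less permeable to water. In grasses the CAD family has several members, of which only some are known to act in lignification, and the role of the 3 genes described here in the leaf is not given by the files.

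The coding sequence of PheCAD8 was cloned by the study, and the gene-specific parts of its cloning primers show the ends of this reading frame, since PheCAD8 is the gene that carries most of the results below. The first line is the sense strand from the start codon, in capitals. The second line is the antisense strand from the stop codon, whose complement is in capitals.
PheCAD8 forward: ATGgagcaaggcaaggc
PheCAD8 reverse: CTAggcggtggaaccga

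Each library held 28153302 to 51695158 counts, with a median of 33238237. Of the libraries labelled 0 h, replicate 1 stood apart. Over 16868 genes with a mean log2(CPM + 1) above 3 (CPM, counts scaled to library size), it had a Spearman's rho of 0.713 to 0.715 to the other 0 h libraries but of 0.964 to 0.973 to those labelled ABA 24 h. The other 3 libraries labelled 0 h had a rho of 0.927 to 0.931 to PEG 24 h. PheCAD3, another member of the family, had 199.6, 225 and 208 FPKM in these 3 libraries, and 2.05, 3.09 and 1.37 FPKM in the libraries labelled ABA 24 h, a range in which 0 h replicate 1 also lay. The text of the study does not use these libraries as the labels have them. The PheCAD3 levels of its control are those of the libraries labelled ABA 24 h here, and the levels it describes for the late ABA treatment are those of the libraries labelled 0 h other than replicate 1. Every library was kept in the group its label gives, so a value for 0 h or ABA 24 h is throughout that of the libraries so labelled, and which labels are right was not tested. Most comparisons that rest on them are given as labelled, and also without 0 h replicate 1 or with the 2 labels exchanged. That replicate was left out of the exchange as well. The group orders, the counts of PheCAD10 and the test for any difference among the 24 h groups are given as labelled only. The comparisons of PEG, NaCl and SA with CK do not use the means of the groups labelled 0 h and ABA 24 h. The spread behind their p-values was estimated over all libraries, these included. Their p-values can therefore still change with these libraries, as given below for PheCAD11 in SA 3 h. Genes known to mark leaf tissue are not annotated in the tables, so the tissue label was not checked against markers. In bulk leaves, fewer cells that express a gene and less RNA per cell cannot be told apart.

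The 3 genes differed widely in level. Summed over the 34 libraries, PheCAD8 had 55962 counts, PheCAD11 1389 counts and PheCAD10 95 counts, and PheCAD8 was the most counted of them in 34 of 34 libraries. Levels between genes were compared in FPKM (fragments scaled to gene length and sequencing depth), which takes out gene length. PheCAD8 averaged 27.7 FPKM and was the 4th of the 14 PheCAD genes, with 93.1% of all genes below it. PheCAD11 averaged 0.662 FPKM and was the 10th, with 49.1% of all genes below it. PheCAD10 averaged 0.0498 FPKM and was the 14th, the lowest of the family. The counts per FPKM of PheCAD10 and PheCAD11 were a median of 0.929 and 1.01 times those of PheCAD8, so the lengths behind the FPKM values were nearly equal and length had little part in the order.

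PheCAD8 was lowest in salt-treated leaves at 24 h and highest in CK leaves at 3 h. At 0 h it had 24.7, 16.4, 14.1 and 17.1 FPKM in replicates 1 to 4. Replicate 1, the library that stood apart, was the highest of these. At 3 h it had 28.2, 23.2 and 25.8 FPKM in PEG, 22.6, 18.4 and 22.5 FPKM in NaCl, 23.5, 26.03 and 23.2 FPKM in SA, 44.8, 44.9 and 44.9 FPKM in ABA, and 62.9, 57.6 and 62.8 FPKM in CK. All 12 treated libraries at 3 h were below all 3 CK libraries, and those of ABA were between the CK libraries and the others. At 24 h it had 19.98, 20.5 and 20.5 FPKM in PEG, 10.02, 10.1 and 8.69 FPKM in NaCl, 19.1, 21.6 and 19.5 FPKM in SA, 29.7, 30.5 and 25.8 FPKM in ABA, and 34.3, 35.3 and 30.7 FPKM in CK. The NaCl libraries were the lowest of the whole series at 24 h. Those labelled ABA 24 h came close to CK, and 0 h replicates 2 to 4 (14.1 to 17.1 FPKM) lay below both.

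**Figure D1:**
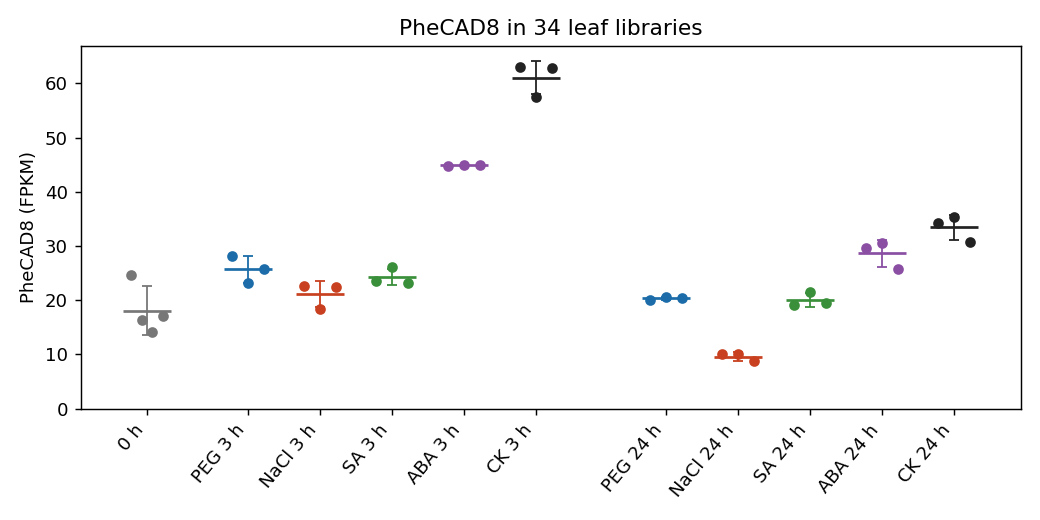
PheCAD8 in FPKM (y axis) in each of the 34 libraries, by group (x axis). Groups are as labelled, dots are libraries, the line is the group mean and the bars are the SD. The CK 3 h libraries lie between 57.6 and 62.9 FPKM, above all others, and the NaCl 24 h libraries lie between 8.69 and 10.1 FPKM, below all others.

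By mean FPKM the order of the groups, from low to high, was NaCl 24 h (9.60 ± 0.795, SD, n = 3), 0 h (18.1 ± 4.59, SD, n = 4), SA 24 h (20.1 ± 1.31), PEG 24 h (20.3 ± 0.310), NaCl 3 h (21.2 ± 2.37), SA 3 h (24.3 ± 1.55), PEG 3 h (25.7 ± 2.50), ABA 24 h (28.7 ± 2.51), CK 24 h (33.4 ± 2.38), ABA 3 h (44.9 ± 0.0578) and CK 3 h (61.1 ± 3.06, SD, n = 3 each). Of the 10 pairs of neighbours in this order, 5 overlapped between libraries. Those that did not were NaCl 24 h and 0 h, NaCl 3 h and SA 3 h, ABA 24 h and CK 24 h, ABA 3 h and CK 24 h, and ABA 3 h and CK 3 h. The highest mean was 6.36 times the lowest. With counts scaled by TMM (trimmed mean of M values), the scaling that the tests use, this ratio was 5.69, ABA 24 h moved above CK 24 h, and these 2 groups overlapped.

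Relative to CK at the matching time, PheCAD8 fell in NaCl at both times and, with the groups as labelled, passed the threshold in no other treatment. The threshold required at least a 2-fold change together with an adjusted p under 0.05 in edgeR's quasi-likelihood test on counts. In NaCl 3 h the log2 fold change was -1.50 (SE 0.17, adjusted p = 5.41e-08), a level 0.354 times that of CK, where 8.79% of all genes passed lower. In NaCl 24 h it was -1.70 (SE 0.17, adjusted p = 5.06e-09), a level 0.309 times that of CK, where 14.6% of all genes passed lower. PheCAD8 was lower in 3 of 3 NaCl libraries at each time, with no overlap with CK.

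PEG and SA gave smaller differences from CK in PheCAD8, each short of 2-fold. In either direction, 24.1% of all genes passed the threshold in PEG 3 h, 27.2% in SA 3 h and 14.5% in PEG 24 h, and 10.9% passed lower in SA 24 h. The log2 fold change in PEG was -0.85 (SE 0.17, adjusted p = 0.000135) at 3 h and -0.54 (SE 0.17, adjusted p = 0.0154) at 24 h. In SA it was -0.97 (SE 0.17, adjusted p = 2.34e-05) at 3 h and -0.79 (SE 0.17, adjusted p = 0.000414) at 24 h. Under the adjusted p alone, PheCAD8 was lower than CK in 6 of the 8 comparisons in the fit of all libraries, namely in all but the 2 of ABA. Under that rule 22.4% of all genes were lower in PEG 3 h, 18.1% in NaCl 3 h, 22.3% in SA 3 h, 20.9% in ABA 3 h, 13.5% in PEG 24 h, 18.6% in SA 24 h, 24.4% in NaCl 24 h and 20.5% in ABA 24 h. When each library was left out in turn, the adjusted p in PEG 24 h ranged up to 0.0909. The values at 3 h depended on the scaling: with total counts in place of TMM, the median of all genes moved by -0.34 in PEG 3 h and by -0.36 in SA 3 h, and PheCAD8 then had -1.20 and -1.33, past the threshold in both. The SA 3 h value lay close to 2-fold and also passed with no filter (-1.02), without CK 3 h replicate 2 (-1.05) and without SA 3 h replicate 2 (-1.06).

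In the libraries labelled ABA, where 19.9% of all genes passed in either direction at 3 h and 18.5% at 24 h, the difference of PheCAD8 from CK did not pass the threshold. The log2 fold change was -0.32 (SE 0.17, adjusted p = 0.128) at 3 h, although the 3 ABA libraries (44.8 to 44.9 FPKM) were below the 3 CK libraries (57.6 to 62.9 FPKM). It stayed short of 2-fold in every fit run, and its adjusted p was under 0.05 with only the groups compared (0.00372), with total counts (0.0235), on log2(FPKM + 0.1) (0.00679) and log2(FPKM + 1) (0.00519), and with 0 h replicate 1 out of the fit (0.00388). At 24 h it was 0.07 (SE 0.17, adjusted p = 0.769) with TMM scaling and -0.19 with total counts, so its direction changed with the scaling. It turned with the labels too. The libraries labelled 0 h, replicate 1 left out, had 16.4, 14.1 and 17.1 FPKM, against 34.3, 35.3 and 30.7 FPKM in CK 24 h, with no overlap. Their log2 fold change was -1.08 (SE 0.09, adjusted p = 5.41e-11), past the threshold, where 9.41% of all genes passed lower. Whether PheCAD8 fell in ABA at 24 h therefore cannot be told from these labels.

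A test for any difference among the 5 groups of a time point gave an adjusted p of 7.85e-08 at 3 h and 4.48e-09 at 24 h for PheCAD8, and 73.1% and 73% of all genes passed an adjusted p of 0.05 in it.

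The effect of each treatment on PheCAD8 relative to CK was then compared between the times. The 24 h effect minus the 3 h effect was 0.32 in PEG (adjusted p = 0.342), -0.20 in NaCl (adjusted p = 0.591), 0.18 in SA (adjusted p = 0.641) and 0.39 in ABA (adjusted p = 0.203), with an SE of 0.23 to 0.24. None of the 4 passed in this fit, 0 of 4 had an unadjusted p under 0.05, and leaving out libraries moved the NaCl value between -0.28 and -0.10. Of all genes, 19.5% passed in either direction in PEG, 18.2% in NaCl and 23.4% in ABA, and 9.48% passed lower in SA. The values were short of 2-fold in every fit run, but some had an adjusted p under 0.05 elsewhere. PEG did so with only the groups compared (0.29, adjusted p = 0.0421), with total counts (0.48, 0.0472), on both FPKM scales (0.54, 0.0228, and 0.53, 0.0179) and with 0 h replicate 1 out of the fit (0.31, 0.0497). SA did so with total counts (0.60, adjusted p = 0.0139) and on both FPKM scales (0.60, 0.0121, and 0.59, 0.00880). ABA did so with only the groups compared (0.39, adjusted p = 0.0120) and with 0 h replicate 1 out of the fit (0.39, 0.0124), and with the labels exchanged its value was -0.76 (adjusted p = 2.07e-05), the opposite direction. CK itself was lower at 24 h than at 3 h, with a log2 fold change of -0.81 (SE 0.17, adjusted p = 0.000876), short of 2-fold. Of all genes, 5.85% passed there in either direction.

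**Figure D2:**
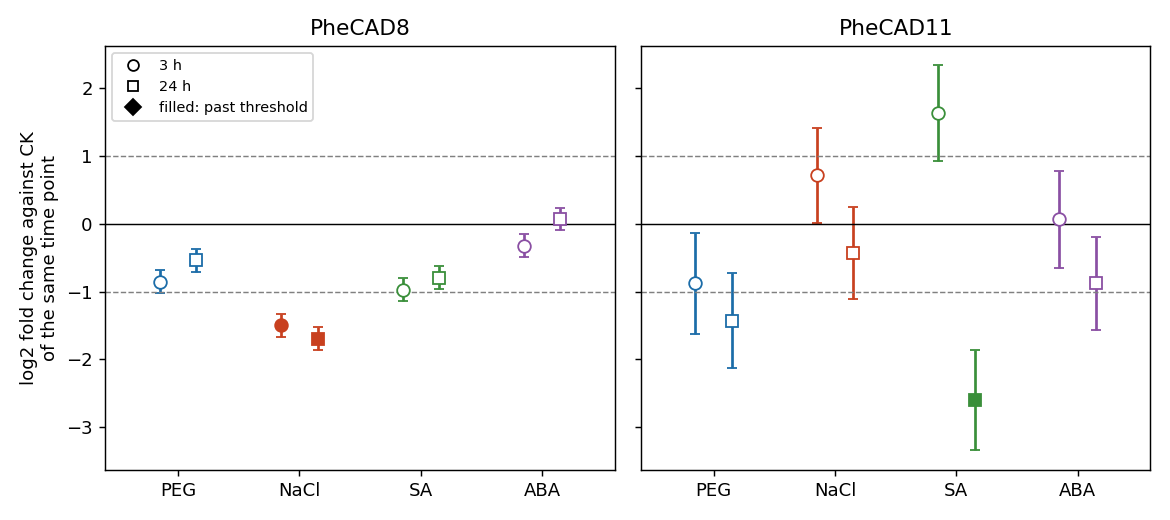
Log2 fold changes (y axis) of PheCAD8 (left) and PheCAD11 (right) in each treatment, set against CK at the matching time, with the approximate SE as bars. Groups are as labelled, circles are 3 h and squares 24 h, filled symbols passed the threshold, and dashed lines mark 2-fold. PheCAD8 passed in NaCl at -1.50 and -1.70, and PheCAD11 passed in SA 24 h at -2.60.

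PheCAD8 was then compared directly between the salt and the drought treatment. At 24 h it had 10.02, 10.1 and 8.69 FPKM in NaCl, against 19.98, 20.5 and 20.5 FPKM in PEG, with no overlap. The log2 fold change of NaCl against PEG was -1.16 (SE 0.17, adjusted p = 4.01e-06), past the threshold, where 8.1% of all genes passed lower. At 3 h it was -0.64 (SE 0.17, adjusted p = 0.00356), short of 2-fold, where 15.7% of all genes passed in either direction.

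Set against the libraries labelled 0 h, PheCAD8 was past the threshold and higher in CK 3 h and in ABA 3 h, a result that was lost when the labels were exchanged. Its log2 fold change was 1.59 (SE 0.16, adjusted p = 3.46e-09) in CK 3 h, where 7.39% of all genes passed higher, and 1.27 (SE 0.15, adjusted p = 1.53e-07) in ABA 3 h, where 10.1% did. Without 0 h replicate 1 these values were 1.89 and 1.57. The other 8 comparisons with 0 h lay between -0.92 (NaCl 24 h, adjusted p = 4.55e-05) and 0.85 (ABA 24 h, adjusted p = 0.000115) and were short of 2-fold. In either direction, 27.7% of all genes passed in PEG 3 h, 26.2% in NaCl 3 h, 32.6% in SA 3 h, 11.3% in CK 24 h, 4.27% in PEG 24 h, 20.3% in SA 24 h, 19.1% in NaCl 24 h and 18.8% in ABA 24 h. The values depended on the 0 h libraries. Without replicate 1, PEG 3 h (1.04), CK 24 h (1.08) and ABA 24 h (1.15) passed the threshold, while NaCl 3 h (0.40), SA 3 h (0.92), PEG 24 h (0.54), NaCl 24 h (-0.62) and SA 24 h (0.29) stayed short of 2-fold. Without replicate 3, NaCl 24 h (-1.04) passed. With the libraries labelled ABA 24 h in the place of 0 h, the values were 0.74 in CK 3 h and 0.42 in ABA 3 h, both short of 2-fold, and -0.11 in PEG 3 h, -0.76 in NaCl 3 h, -0.23 in SA 3 h, -0.07 in CK 24 h, -0.61 in PEG 24 h and -0.87 in SA 24 h. NaCl 24 h then passed at -1.77 (adjusted p = 4.99e-16), where 16.1% of all genes passed lower. So did the libraries labelled 0 h themselves, replicate 1 left out, at -1.15 against those labelled ABA 24 h (adjusted p = 7.90e-12), where 12.6% passed lower. The comparisons with 0 h share the 0 h libraries, and those with CK share the CK libraries, so they are not independent of each other.

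PheCAD11 was detected at low level and varied more between replicates, relative to its level, than PheCAD8. At 0 h it had 0.472, 0.515, 0.205 and 0.729 FPKM. At 3 h it had 0.230, 0.0749 and 0.178 FPKM in PEG, 0.798, 0.658 and 0.588 FPKM in NaCl, 1.02, 1.27 and 0.796 FPKM in SA, 1.07, 0.145 and 0 FPKM in ABA, and 0.324, 0.546 and 0.392 FPKM in CK. All SA and all NaCl libraries at 3 h were above all CK libraries, all PEG libraries were below them, and the ABA libraries reached from 0 FPKM to above every CK library. At 24 h it had 0.928, 0.328 and 0.294 FPKM in PEG, 1.23, 0.824 and 1.25 FPKM in NaCl, 0.315, 0.335 and 0.155 FPKM in SA, 0.838, 0.438 and 0.812 FPKM in ABA, and 1.79, 1.67 and 1.28 FPKM in CK. All 12 treated libraries at 24 h were below all 3 CK libraries. These values rest on 5 to 110 counts per library outside ABA 3 h, whose libraries held 58, 8 and 0 counts.

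**Figure D3:**
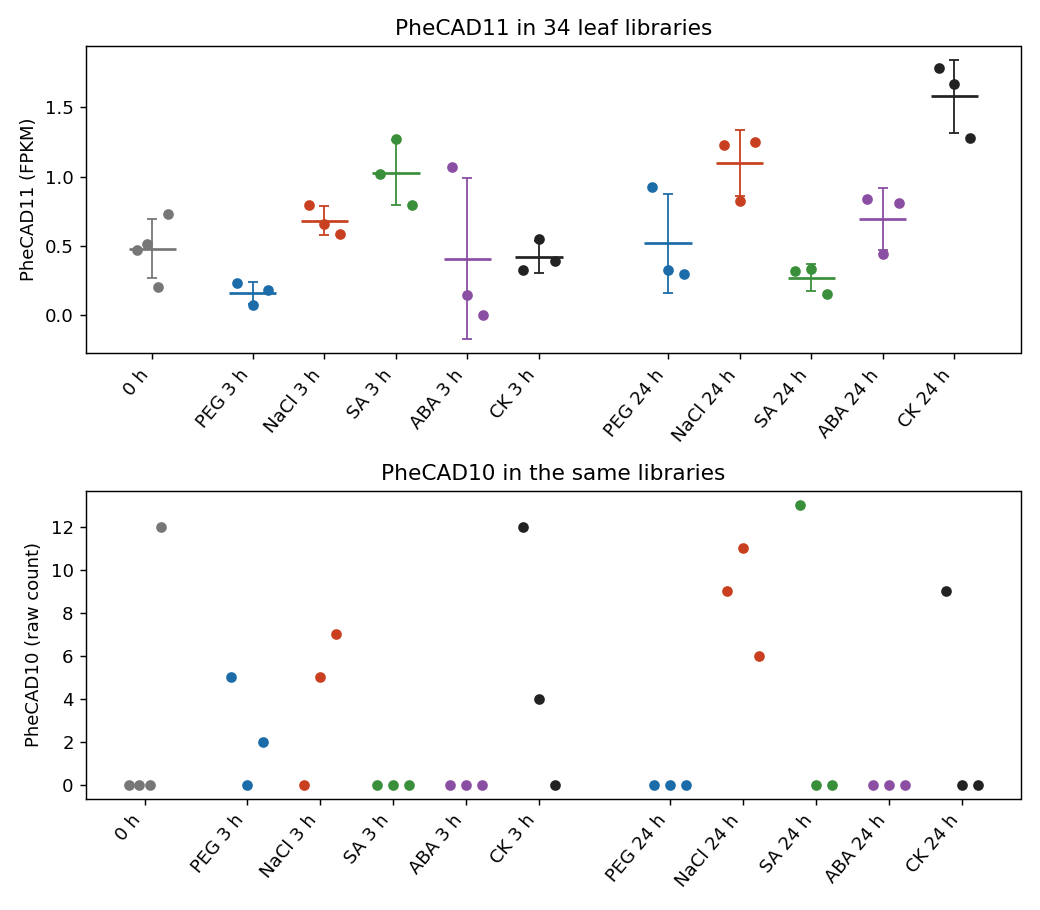
PheCAD11 in FPKM (upper panel) and PheCAD10 as raw counts (lower panel) in the same 34 libraries by group. Dots are libraries, and in the upper panel the line is the mean and the bars are the SD. PheCAD11 reached 1.28 to 1.79 FPKM in CK 24 h, and PheCAD10 had reads in every library of NaCl 24 h only.

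From low to high, the mean FPKM of PheCAD11 was 0.161 ± 0.0791 in PEG 3 h, 0.269 ± 0.0988 in SA 24 h, 0.406 ± 0.582 in ABA 3 h, 0.421 ± 0.114 in CK 3 h, 0.480 ± 0.215 in 0 h (n = 4), 0.517 ± 0.357 in PEG 24 h, 0.682 ± 0.107 in NaCl 3 h, 0.696 ± 0.224 in ABA 24 h, 1.03 ± 0.238 in SA 3 h, 1.10 ± 0.239 in NaCl 24 h and 1.58 ± 0.264 in CK 24 h (SD, n = 3 each). Of the 10 pairs of neighbours, 9 overlapped, and CK 24 h stood above NaCl 24 h without overlap. With TMM scaling 10 of 10 overlapped.

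Against CK, PheCAD11 fell in SA 24 h, where it had 0.315, 0.335 and 0.155 FPKM, against 1.79, 1.67 and 1.28 FPKM in CK 24 h. The log2 fold change was -2.60 (SE 0.74, adjusted p = 0.00645), a level 0.165 times that of CK, where 10.9% of all genes passed lower. It was lower in 3 of 3 SA libraries and passed in 6 of 6 fits that each left out 1 library, with values between -2.76 and -2.29.

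At 3 h the SA libraries had 1.02, 1.27 and 0.796 FPKM, against 0.324, 0.546 and 0.392 FPKM in CK. All 3 SA libraries were above the CK libraries, but the log2 fold change of 1.63 (SE 0.71, adjusted p = 0.0639) did not pass the test. It passed in a fit of these 2 groups alone (1.64, adjusted p = 0.00112), in DESeq2 (1.68, adjusted p = 0.0296) and without 0 h replicate 1 (1.63, adjusted p = 0.0499). The difference between the times was tested itself. The SA effect relative to CK at 24 h minus that at 3 h was -4.23 (SE 1.02, adjusted p = 0.00259), where 9.48% of all genes passed lower, and it passed in 12 of 12 fits that each left out 1 library (-4.41 to -3.88). CK moved too in this difference: PheCAD11 in CK 24 h against CK 3 h had a log2 fold change of 1.95 (SE 0.71, adjusted p = 0.0729), short of the threshold in the fit of all libraries. It passed in DESeq2 (adjusted p = 0.0236), with only the groups compared (1.93, adjusted p = 0.000196), with 0 h replicate 1 out of the fit (1.94, adjusted p = 0.0413) and on log2(FPKM + 0.1) (1.70, adjusted p = 0.0346).

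The time differences of PheCAD11 in the other treatments did not pass in the fit of all libraries. The 24 h effect minus the 3 h effect was -0.55 in PEG (adjusted p = 0.752), -1.14 in NaCl (adjusted p = 0.426) and -0.95 in ABA (adjusted p = 0.500), with an SE of 0.98 to 1.03. The NaCl value passed with only the groups compared (-1.14, adjusted p = 0.0250), and the ABA value was -1.75 (adjusted p = 0.171) with the labels exchanged. In the direct comparison of NaCl with PEG, PheCAD11 had a log2 fold change of 1.60 (SE 0.75, adjusted p = 0.104) at 3 h and of 1.00 (SE 0.70, adjusted p = 0.282) at 24 h. Neither passed in this fit. The value at 3 h passed in a fit of only the groups compared (1.61, adjusted p = 0.0266), with total counts (1.91, adjusted p = 0.0473) and on log2(FPKM + 0.1) (1.62, adjusted p = 0.0187).

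The other 6 comparisons of PheCAD11 with CK did not pass in the fit of all libraries. In PEG the log2 fold change was -0.88 (adjusted p = 0.366) at 3 h and -1.43 (adjusted p = 0.136) at 24 h, and the value at 24 h passed with only the 2 groups in the fit (-1.42, adjusted p = 0.0117). In NaCl it was 0.72 (adjusted p = 0.462) at 3 h and -0.43 (adjusted p = 0.639) at 24 h, the treatment in which PheCAD8 fell at both times. In ABA it was 0.07 (adjusted p = 0.963) at 3 h and -0.88 (adjusted p = 0.339) at 24 h, or -1.69 (adjusted p = 0.0549) at 24 h with the labels exchanged. The value at 3 h was decided by 1 library: without ABA 3 h replicate 1, which held 58 of the 66 counts of its group, it was -2.37 (adjusted p = 0.0127). Against the libraries labelled 0 h, 0 of 10 comparisons of PheCAD11 passed in the fit of all libraries, with 1 at an unadjusted p under 0.05 (CK 24 h, 1.61, adjusted p = 0.0698), and this one passed in DESeq2 (1.59, adjusted p = 0.0399) and on log2(FPKM + 0.1) (1.61, adjusted p = 0.0192). With only the groups compared, CK 24 h (1.60, adjusted p = 0.0487) and SA 3 h (1.28, adjusted p = 0.0483) passed. Against the libraries labelled ABA 24 h in their place, PEG 3 h (-1.95, adjusted p = 0.0266) and SA 24 h (-1.72, adjusted p = 0.0411) passed, where 15.3% and 16.4% of all genes passed lower. Without 0 h replicate 1 it was still 0 of 10 against 0 h in edgeR, and without ABA 3 h replicate 1 the ABA 3 h comparison (-0.27 with all libraries) was -2.70 (adjusted p = 0.00357). Among the 5 groups of a time point the test for any difference gave an adjusted p of 0.0301 at 3 h and 0.0258 at 24 h. In that test 73.1% and 73% of all genes had an adjusted p under 0.05.

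PheCAD10 was close to the detection limit. It had 2 to 13 counts in 12 of the 34 libraries and 0 counts in 22. In NaCl 24 h it had 9, 11 and 6 counts, and this was the only group with reads in every library. In PEG 24 h, SA 3 h, ABA 3 h and ABA 24 h it had 0 counts in all 3 libraries, and a count of 0 allows up to 3 counts, or 0.0536 to 0.115 CPM depending on the library. NaCl 24 h averaged 0.221 CPM, 2.42 times the mean floor of PEG 24 h and 2.26 times that of SA 3 h. It was 2.32 times the floor of ABA 3 h and 2.18 times that of ABA 24 h. The floor was taken per library and for counting error only, and the error of the NaCl 24 h mean was left out. In edgeR's quasi-likelihood test NaCl 24 h against PEG 24 h did not pass (adjusted p = 0.0991).

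In the other groups the reads of PheCAD10 came from some libraries and not from others. It had 5, 0 and 2 counts in PEG 3 h, 0, 5 and 7 in NaCl 3 h, and 12, 4 and 0 in CK 3 h. It had 13, 0 and 0 counts in SA 24 h, 9, 0 and 0 in CK 24 h, and 0, 0, 0 and 12 at 0 h. In CK 3 h, SA 24 h and 0 h, 1 library held 12 or 13 counts, more than any NaCl 24 h library, beside at least 1 library at 0. In edgeR, 0 of 25 comparisons of PheCAD10 passed the threshold, with 1 at an unadjusted p under 0.05, and DESeq2 gave 0 and 0.

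Because PheCAD8 fell in NaCl and PheCAD11 did not pass there, the balance of the 3 genes was followed within each library, where scaling cancels. PheCAD11 made up 10.8%, 7.43% and 12.5% of the summed counts of the 3 genes in NaCl 24 h, against 4.94%, 4.54% and 4.04% in CK 24 h, with no overlap. The 95% Wilson intervals were 9.08% to 12.9%, 5.65% to 9.71% and 10.2% to 15.2% in NaCl 24 h, against 4.10% to 5.95%, 3.74% to 5.50% and 3.23% to 5.05% in CK 24 h, and they cover counting error only. At 3 h the share was 3.45%, 3.46% and 2.57% in NaCl, against 0.518%, 0.950% and 0.620% in CK, again with no overlap.

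The share also separated SA from CK, in opposite directions at the 2 times. In SA 3 h it was 4.20%, 4.65% and 3.35%, against the CK 3 h values given above, and all SA libraries were higher. In SA 24 h it was 1.63%, 1.54% and 0.792%, against the CK 24 h values above, and all SA libraries were lower. In group means, PheCAD8 had 145 times the FPKM of PheCAD11 in CK 3 h and 8.74 times in NaCl 24 h. These shares were not put to a test. For PheCAD8 and PheCAD11 over 34 libraries Pearson's r of log2(CPM + 1) was -0.16 and Spearman's rho -0.10, and r was -0.33 at 3 h and 0.09 at 24 h over 15 libraries each, as a description of libraries that share groups.

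**Figure D4:**
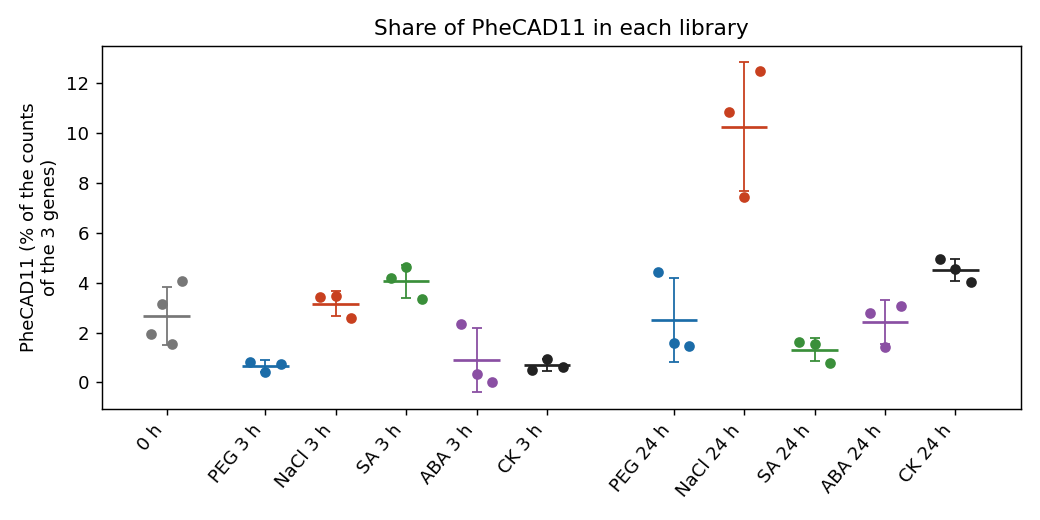
Share of PheCAD11 in the summed counts of PheCAD8, PheCAD10 and PheCAD11 (y axis, percent) in each library by group (x axis). Dots are libraries, the line is the mean and the bars are the SD. The NaCl 24 h libraries lie between 7.43% and 12.5%, above all others.

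Within the family, the fall of PheCAD8 in NaCl stood beside rises of other members. Of the 11 other PheCAD genes, all of which were tested, NaCl 3 h held 3 higher and 1 lower past the threshold. NaCl 24 h held 4 higher and 0 lower. Over all genes, 8.79% passed lower in NaCl 3 h and 14.6% in NaCl 24 h. The share of all genes that passed higher is not given here, and the family counts were not tested against all genes. Those higher at 24 h were PheCAD3 (log2 fold change 5.64), PheCAD5 (7.17), PheCAD2 (1.44) and PheCAD13 (1.24). PheCAD5 had only 0 to 15 counts per library in CK 24 h, so the size of its fold changes against that group is uncertain. PheCAD4 was the one lower at 3 h (-1.62). PheCAD3 and PheCAD5 carry consecutive identifiers as well, and both rose in NaCl, PEG and SA at both times and in ABA at 3 h.

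In the libraries labelled ABA 24 h, 5 of the 11 other PheCAD genes were lower than in CK 24 h and 0 higher. Over all genes, 18.5% passed there in either direction. Those lower were PheCAD2 (-2.82), PheCAD3 (-2.26), PheCAD9 (-6.18), PheCAD12 (-1.03) and PheCAD14 (-2.69), and PheCAD8 had 0.07 and did not pass. PheCAD9 was close to the detection limit, with 8 to 11 counts per library in CK 24 h. It had 0 counts in all 3 libraries labelled ABA 24 h, so the size of its fall is not known. With the labels exchanged, PheCAD2 and PheCAD3 went the other way. Of the same 11 genes, 3 were higher and 0 lower in the libraries labelled 0 h, replicate 1 left out, than in CK 24 h. Those higher were PheCAD2 (1.24), PheCAD3 (4.03) and PheCAD5 (5.04), and PheCAD8 was lower (-1.08), where 9.41% of all genes passed lower. The share of all genes that passed higher in this comparison is not given here, and the family counts were not tested against all genes. PheCAD9 (-0.22), PheCAD12 (-0.63) and PheCAD14 (-0.77) stayed below CK 24 h, short of 2-fold.

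In SA 24 h, where PheCAD11 fell, 2 of the 11 were higher (PheCAD3, 7.44, and PheCAD5, 8.42) and 0 lower. Over all genes, 10.9% passed lower there. The share of all genes that passed higher is not given here, and the family counts were not tested against all genes. The low CK 24 h counts of PheCAD5 given above apply to its value here too.

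The other genes of the lignin pathway, from phenylalanine ammonia-lyase (PAL), which opens the pathway, to cinnamoyl-CoA reductase (CCR), which makes the substrate of CAD, gave the background. Of 156 such genes listed by the study, the 11 other PheCAD genes among them, 126 were tested. In NaCl 3 h, 30 passed higher and 16 passed lower (median log2 fold change 0.22, against -0.07 over all genes), and in NaCl 24 h, 28 were higher and 13 lower (0.23, against -0.07). Of the 6 genes of cinnamate 4-hydroxylase (C4H), which hydroxylates cinnamic acid, 5 were higher in NaCl 3 h and 3 in NaCl 24 h, and 0 were lower. The families differed. Of the 13 PAL genes tested, 6 were higher and 1 lower in NaCl 3 h, and 0 were higher and 2 lower in NaCl 24 h. Of the 25 CCR genes tested, 3 were higher and 4 lower in NaCl 3 h, and 4 were higher and 8 lower in NaCl 24 h. PheCAD8 was lower in NaCl at both times, as were 16 of the 126 pathway genes at 3 h and 13 at 24 h. Over all genes, 8.79% passed lower at 3 h and 14.6% at 24 h. The share of all genes that passed higher is not given here, and the pathway counts were not tested against all genes.

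In PEG, 27 pathway genes were higher and 6 lower at 3 h, and 12 higher and 13 lower at 24 h. Over all genes, 24.1% and 14.5% passed there in either direction. In SA, 26 pathway genes were higher and 24 lower at 3 h, and 28 higher and 24 lower at 24 h. Over all genes, 27.2% passed in either direction in SA 3 h and 10.9% passed lower in SA 24 h. The share that passed higher in SA 24 h is not given here, and the pathway counts were not tested against all genes. Scaling by total counts changed the split to 22 higher and 18 lower in PEG 3 h, 10 and 19 in PEG 24 h, and 19 and 37 in SA 3 h. In ABA, 32 were higher and 5 lower at 3 h, and 5 higher and 44 lower in the libraries labelled ABA 24 h. Over all genes, 19.9% passed in either direction in ABA 3 h and 18.5% in ABA 24 h. All 13 tested PAL genes were lower in the libraries labelled ABA 24 h (median -3.57), and PheCAD8 (0.07) and PheCAD11 (-0.88) did not pass. Set against CK 24 h, the libraries labelled 0 h without replicate 1 held 11 higher and 19 lower pathway genes, where 9.41% of all genes passed lower. The share of all genes that passed higher in this comparison is not given here. Of the PAL genes, 0 were higher there and 4 lower (median 0.03), so the change of PAL rests on these labels.

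The genes most like PheCAD8 over the 34 libraries were PH02Gene35808 (Pearson's r of log2(CPM + 1) 0.94), Phyllostachys_edulis_newGene_1422 (0.93) and PH02Gene26221 (0.92). PH02Gene35808 had 9.85 FPKM in NaCl 24 h, 38.0 FPKM in CK 24 h and 68.6 FPKM in CK 3 h, where PheCAD8 had 9.60, 33.4 and 61.1 FPKM. For PheCAD11 the nearest were PH02Gene34200 (0.73), PH02Gene04873 (0.71) and PH02Gene05447 (0.70). The tables do not annotate these identifiers, the libraries share groups and scaling, and the genes were picked as the highest of 39392, so the values are a description. PheCAD10 has too few counts for such a comparison.

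Most neighbours by number were hardly detected. Of the 5 identifiers before PH02Gene13789 and the 5 after PH02Gene13791, 7 were at 0 to 0.00833 FPKM and were not tested. PH02Gene13786 (12.3 FPKM) had an r of 0.45 with PheCAD8 and a log2 fold change of 0.00 in NaCl 24 h against CK 24 h. PH02Gene13787 (0.958 FPKM) and PH02Gene13796 (0.670 FPKM) had an r of -0.20 and -0.42 with PheCAD8. Their log2 fold changes in NaCl 24 h against CK 24 h were 0.56 and 1.98, given without a test. The 3 members belong to 1 family, and the handling of reads that fit more than 1 gene is not stated, so the low counts of PheCAD10 and PheCAD11 are uncertain.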

How the data were processed

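Poly-A selected leaf RNA was sequenced in 34 libraries. The authors deposited raw counts for 59091 genes, not normalized, and FPKM values computed by the authors before deposition. The submitters' processing notes name HISAT2 and DESeq2 with no version; counter, genome build and annotation: not given in the sources used here. No column of either table belonged to another sample. Of 36 replicate pairs 0 were identical, and the chi-square per degree of freedom between them was 5.72 to 298.

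Tests on counts used edgeR 4.0.16 (R 4.3.3). filterByExpr left 39392 genes, TMM was used for scaling, and a single quasi-likelihood fit of all libraries held 11 group means, with Benjamini-Hochberg adjustment over all genes tested. Each SE is approximate: the absolute log2 fold change divided by the root of F. Where all libraries of a group were at 0, a bound used 3 counts per library. The 25 comparisons were each treatment against CK (8), each group against 0 h (10), 24 h minus 3 h effects (4) and 3 others. Shares of counts carry 95% Wilson intervals. The test was also run on counts simulated with the same dispersion for every gene, and no result here rests on that run. Alternatives were DESeq2 1.42.0, its size factors in edgeR, no filter, a fit of only the groups compared, a block for the replicate number, limma 3.58.1 on log2(FPKM + 0.1) and log2(FPKM + 1), and each library left out in turn. Scaling by total counts, 0 h replicate 1 left out of the fit, and the labels of 0 h and ABA 24 h exchanged without that replicate were chosen after seeing the data, as were the bounds for PheCAD10. Figures were drawn with Python 3.11.15 and matplotlib 3.10.9.

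Named were the 3 members, other PheCAD genes where the family is compared, and the 3 genes with the highest Pearson's r with PheCAD8 and PheCAD11. The members and lists were chosen with earlier results of these data known, and the lignin gene list is the study's.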

Additional observations from a re-analysis of the deposited data

Results flagged for a closer look

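PheCAD10 at 0 h had 0.233 FPKM (12 counts) in replicate 4 and 0 FPKM in the other 3 libraries, so that its highest library lay farther from the rest than the spread of a group of 4 allows by Dixon's 95% criterion. With the other libraries at 0, any reads in a single library meet this criterion whatever their number, so it says nothing here of an unusual library. SA 24 h (13, 0 and 0 counts) and CK 24 h (9, 0 and 0 counts) had the same form.

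The SA effect on PheCAD11 relative to CK differed between the times by -4.23 on the log2 scale (24 h minus 3 h), and this difference was tested itself in edgeR's quasi-likelihood model (adjusted p = 0.00259). PheCAD11 had 0.269 ± 0.0988 FPKM in SA 24 h and 1.58 ± 0.264 FPKM in CK 24 h, and 1.03 ± 0.238 FPKM in SA 3 h and 0.421 ± 0.114 FPKM in CK 3 h (SD, n = 3 each).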

How the results depend on the processing

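Against CK, the calls of PheCAD8 in NaCl 3 h (-1.56 to -1.39 with single libraries left out) and NaCl 24 h (-1.76 to -1.60), and that of PheCAD11 in SA 24 h (-2.76 to -2.29), held under every alternative run. With the labels of 0 h and ABA 24 h exchanged and 0 h replicate 1 out of the fit, PheCAD8 had -1.08 in ABA 24 h against CK and -0.76 in the ABA time difference, and against 0 h it had -0.11 in PEG 3 h, -0.76 in NaCl 3 h, -0.23 in SA 3 h, -0.61 in PEG 24 h, -0.074 in CK 24 h and -1.15 in ABA 24 h, all turned from above 0. Against 0 h, 3 values of PheCAD11 turned as well, to -0.81 in ABA 24 h, -0.55 in PEG 24 h and -0.35 in NaCl 3 h. PheCAD8 passed in 2 of 8 comparisons with CK, in 3 with no filter (SA 3 h, -1.02) and in 4 with total counts or FPKM. With total counts it had -1.20 in PEG 3 h, -1.33 in SA 3 h, -0.19 in ABA 24 h and 0.15 in SA 24 h against 0 h. On log2(FPKM + 0.1) these were -1.25, -1.33, -0.22 and 0.18, and on log2(FPKM + 1) they were -1.22, -1.30, -0.22 and 0.17. The 0 h comparison was -0.01 with TMM. PheCAD11 in ABA 3 h against CK (0.07) was -0.32 with the replicate block, -0.74 on log2(FPKM + 0.1) and -0.088 on log2(FPKM + 1). With only the groups compared, PheCAD11 also passed in the NaCl time difference (-1.14) and in SA 3 h (1.28) and CK 24 h (1.60) against 0 h. PheCAD11 passed in SA 3 h against CK with only the groups compared (1.64), DESeq2 (1.68) and 0 h replicate 1 out of the fit (1.63), and in PEG 24 h with only the groups compared (-1.42) and log2(FPKM + 0.1) (-1.58). The cause of these changes was not tested. The ratio of the highest to the lowest mean of PheCAD8 was 6.36, and 5.69 with TMM.

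Leaving out single libraries gave -1.06 to -0.99 for PheCAD8 in SA 3 h against CK, past the threshold without replicate 2 of CK 3 h or of SA 3 h, and -0.91 to -0.78 in PEG 3 h. PheCAD11 had -2.37 to 0.66 in ABA 3 h against CK, -2.70 to 0.33 in ABA 3 h and -0.51 to 0.48 in PEG 24 h against 0 h, and -1.52 to 1.51 in the ABA time difference, of which -2.37, -2.70 and 1.51 came without ABA 3 h replicate 1. Against 0 h, PheCAD8 had -0.14 to 0.29 in SA 24 h, -0.032 to 0.40 in NaCl 3 h, 0.61 to 1.04 in PEG 3 h, 0.65 to 1.08 in CK 24 h, 0.73 to 1.15 in ABA 24 h and -1.04 to -0.62 in NaCl 24 h. The other alternatives, 203 of 227 values of PheCAD8 and 202 of 227 of PheCAD11, kept direction and side of the threshold.

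Replicate numbers did not pair the libraries: over 165 same-numbered pairs the median correlation of deviations was -0.011, 3 pairs were over 0.1, and 5 of 33 libraries correlated best with their own number. With the replicate block PheCAD8 passed in 2 and PheCAD11 in 1 of 8 comparisons with CK. The number of PheCAD10 counts (95 in all) and of PheCAD11 (1389) limits what could be detected. PheCAD10 passed the low-count filter in none of the fits of only the groups compared, so that fit gave no value for it.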
